A study of Mus musculus with 6 samples.

Results

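The calponins and transgelins of C2C12 cells were examined transcript by transcript after siRNA against calponin 3 (CNN3). The 5 genes Cnn1, Cnn2, Cnn3, Tagln and Tagln2 were taken by name from the deposited expression values, and their 10 listed transcripts were kept out of 24023. The 5 genes are among 11844 for which the listed transcripts were summed. C2C12 is a mouse myoblast line that stops dividing and fuses into myotubes when serum is withdrawn, and its cells are labelled as mouse myotube. Each of the 6 libraries came from C2C12 cells moved to medium with 2% horse serum once near confluent. In 3 of them the cells had received NC siRNA, a control duplex (siNC), and in the other 3 they had received CNN3 siRNA (siCNN3), so all 6 were transfected and none was untreated. The labels do not say whether the 3 libraries of a group came from separate cultures, so every p-value given here measures only the spread between these libraries. In RNA from whole cultures, fewer cells of a kind and less RNA per cell cannot be told apart.

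Calponins and transgelins are small actin-binding proteins that share an N-terminal calponin homology domain and short calponin-like repeats near the C-terminus. Calponin 1, made by Cnn1, and transgelin, made by Tagln and also called SM22-alpha, are known from differentiated smooth muscle, where calponin 1 binds actin and slows the ATPase of myosin. Calponin 2, calponin 3 and transgelin-2 are found in many non-muscle cells, where they bind and stabilise actin filaments, and calponin 3 is also made by myoblasts and in the brain. Tagln and Cnn1 are textbook targets of serum response factor, which binds the CArG box and is driven by actin dynamics and TGF-beta.

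Cnn3 was the targeted gene and is found on chromosome 3 (121426497 to 121458207, plus strand) of the mouse build GRCm38. Of its 8 annotated transcripts, 3 were listed. Cnn3-201 has 2049 nucleotides, of which 990 are coding, in 7 exons, and was the form with the highest FPKM (fragments per length of transcript, scaled to the number of mapped fragments). Cnn3-203 has 1242 nucleotides, begins with 59 nucleotides of the first exon, holds 730 of the 1126 nucleotides of the last exon and lacks the fourth exon of 138 nucleotides. Cnn3-204 has 836 nucleotides, none of the first exon and only 62 of the last, and 419 of its nucleotides are coding. Its annotated coding sequence runs to its last nucleotide, so the annotation may stop short of the end of the RNA. Reads are hard to assign among these forms, because every nucleotide of Cnn3-203 and all but 183 of those of Cnn3-204 are also found in another listed form.

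The study made 3 CNN3 siRNAs, and the sources used here do not name the one given to the sequenced cells, so each was placed on each listed transcript of the family. Their antisense strands, which guide the silencing complex, are shown without overhangs and with the seed (bases 2 to 8) in capitals, because a seed match alone can lower a transcript that lacks the whole site.
NC siRNA: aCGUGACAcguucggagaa
CNN3 siRNA1: uUGGUGCCaaugccuaggc
CNN3 siRNA2: uUAACGCCaaugucaaugg
CNN3 siRNA3: uUCCGACCcauuggugccc
CNN3 siRNA1 and siRNA2 matched all 3 listed Cnn3 transcripts over 19 bases. CNN3 siRNA3 matched Cnn3-201 and Cnn3-203 but not Cnn3-204, whose annotation ends before that site in the same exon. As annotated, Cnn3-204 had at least 8 mismatches to siRNA3, and whether its RNA goes on to hold the site is not known here. On Cnn3-201 the sites lie in exon 2 (nucleotides 397 to 415), exon 5 (685 to 703) and exon 7 (1139 to 1157), all coding. In Cnn3-204 the site of siRNA1 falls in the annotated 5′ UTR (nucleotides 248 to 266) and that of siRNA2 in the coding sequence (536 to 554).

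**Figure D1:**
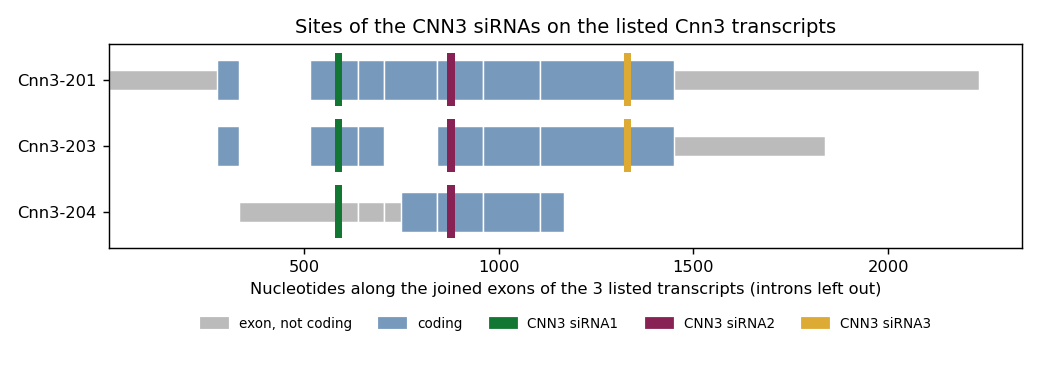
Exons of the 3 listed Cnn3 transcripts along their joined exons, in nucleotides with introns left out, with the sites of the CNN3 siRNAs marked. Sites 1 and 2 lie in all 3 forms, and site 3 lies in Cnn3-201 and Cnn3-203 only.

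The relatives of Cnn3 held no full site, and their closest windows are shown to describe how alike the sequences are. Whether any siRNA acted on a relative was not tested. The 3 windows below have 5 mismatches to the sense strand, the fewest found outside Cnn3, and capitals mark the mismatched bases.
Cnn1-201, closest to siRNA1: gcctGCAGatGggcaccaa
Cnn2-201, closest to siRNA1: gcctCCAGatGggcaccaa
Cnn2-201, closest to siRNA2: GTGtGgacattggAgttaa
The Cnn1 window lies in exon 6 (chr9:22107863-22107881, plus strand) and the Cnn2 windows in exon 6 (chr10:79993540-79993558, plus strand) and exon 5 (chr10:79993239-79993257, plus strand), all coding. Counted from the 5′ end of the sense strand, with U written as T, the differences of the siRNA1 window were A5G, G6C, G7A, C8G and T11G in Cnn1 and A5C, G6C, G7A, C8G and T11G in Cnn2, and those of the siRNA2 window in Cnn2 were C1G, C2T, A3G, T5G and C14A. The siRNA1 windows of Cnn1 and Cnn2 had 0 mismatches in the bases that pair with the seed, and the siRNA2 window of Cnn2 had 1. The transgelins had at least 6 mismatches to siRNA1 and at least 7 to siRNA2. To siRNA3 the nearest windows of Cnn1, Cnn2, Tagln and Tagln2 all had 7 mismatches, and NC siRNA had 8 or 9 mismatches to every listed transcript of the family.

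The seed match of siRNA1, ggcacca, is repeated along the coding sequence of the calponins. It occurs 5 times in Cnn3-201, 4 times in Cnn1-201, 3 times in each Cnn2 transcript, 1 time in Tagln2-201 and in Tagln2-202, and 0 times in Tagln-201 and Tagln2-204. Of the 23949 listed transcripts with a reference sequence, 21.1% hold at least 1 such match and 0.735% hold at least 3. The seed matches of siRNA2 and siRNA3 were found in Cnn3 and in no other listed transcript of the family, while 2.65% and 5.45% of all listed transcripts hold them. A match is a feature of the sequence and does not show that the siRNA acted there. Over their aligned coding sequences, Cnn3 was 71.8% identical to Cnn1, 70.9% to Cnn2, 71.5% to Tagln2 and 65.8% to Tagln, and Tagln was 70.7% identical to Tagln2.

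Cnn3 was lower in every siCNN3 library than in every siNC library, but the decrease did not pass the adjusted test and its size differed between the 3 knockdown libraries. Replicates 1, 2 and 3 of siNC held 62.8, 61.4 and 62.8 FPKM as the gene sum (62.3 ± 0.840, SD, n = 3), and those of siCNN3 held 19.04, 39.2 and 25.6 FPKM (27.9 ± 10.3, SD, n = 3). Against the siNC mean, the siCNN3 libraries thus kept 30.5%, 62.9% and 41.0% of the FPKM, and the highest was 2.06 times the lowest, compared with 1.02 times among the siNC libraries. The log2 fold change, here and below on the log2(FPKM + 1) scale, was −1.19 (SE 0.242, 95% interval −1.76 to −0.62, limma p = 0.00179, adjusted p = 0.067, exact permutation p = 0.1). Without siCNN3 replicate 2, the library that kept the most Cnn3, it was −1.46 and passed (limma adjusted p = 0.0476); over all alternatives the limma adjusted p ranged from 0.0476 to 0.225. A p of 0.1 is the smallest that an exact permutation test of 3 libraries against 3 allows.

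The 3 listed forms of Cnn3 were all lower, and the groups did not overlap for any of them. Cnn3-201, the full-length form, had FPKM of 57.5, 57.5 and 56.9 in siNC, against 15.6, 37.4 and 23.1 in siCNN3, a log2 fold change of −1.23 (SE 0.297, limma p = 0.00576, adjusted p = 0.203, exact permutation p = 0.1). Cnn3-203, which lacks exon 4, had FPKM of 3.25, 1.52 and 3.16 in siNC, against 1.49, 0.735 and 0.886 in siCNN3, a log2 fold change of −0.82 (SE 0.292, limma p = 0.0305, adjusted p = 0.39, exact permutation p = 0.1). Its highest siCNN3 value and its lowest siNC value lie close together. With a pseudocount of 0.1, which weighs low values more, the log2 fold change of Cnn3-203 was −1.25 and that of Cnn3-201 −1.26. Its siCNN3 mean was 39.2% of the siNC mean, compared with 44.3% for Cnn3-201. Cnn3-204, the form annotated without the site of siRNA3, had FPKM of 2.08, 2.38 and 2.72 in siNC, against 1.91, 1.104 and 1.54 in siCNN3, a log2 fold change of −0.44 (SE 0.213, 95% interval −0.96 to 0.08, limma adjusted p = 0.526).

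Cnn3-201 carried most of the gene in both groups. Its share of the Cnn3 FPKM was 91.5%, 93.6% and 90.6% in siNC and 82.1%, 95.3% and 90.5% in siCNN3. The share of Cnn3-204 was 3.32%, 3.88% and 4.33% in siNC and 10.0%, 2.82% and 6.01% in siCNN3. Both comparisons overlapped, with differences of means of −2.60 and 2.44 percentage points (exact permutation p = 0.7 and p = 0.4), and siCNN3 replicate 1, where Cnn3 was lowest, had the lowest share of Cnn3-201 and the highest of Cnn3-204. Leaving that library out turned the difference for Cnn3-201 to 0.990 points and brought that for Cnn3-204 to 0.569 points, which was 4.17 points without siCNN3 replicate 2. Cnn3-203 had shares of 5.17%, 2.48% and 5.04% in siNC and 7.84%, 1.88% and 3.47% in siCNN3, which also overlapped (exact permutation p = 1).

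Cnn2, the other calponin of this line with high FPKM, had a siCNN3 mean at 86.3% of the siNC mean. The gene lies on chromosome 10 (79988584 to 79996062, plus strand), and both of its annotated transcripts were listed. Its FPKM were 116.4, 145.6 and 142.4 in siNC (134.8 ± 16.0, SD, n = 3), against 108.6, 115.6 and 124.6 in siCNN3 (116.3 ± 8.01, SD, n = 3). The low siNC replicate 1 lies within the siCNN3 range, and the log2 fold change was −0.21 (SE 0.123, 95% interval −0.50 to 0.09, limma p = 0.138, adjusted p = 0.463, exact permutation p = 0.2). After median-of-ratios scaling, which puts siNC replicate 1 at 127.6 and the highest siCNN3 library at 125.5, the groups no longer overlapped and the limma p was 0.0493 before and 0.274 after adjustment. Quantile normalization gave −0.34 (limma adjusted p = 0.147), and over all alternatives the limma adjusted p lay between 0.147 and 0.81. Cnn2-201, with 2460 nucleotides, held at least 99.2% of the gene's FPKM in every library. Cnn2-202, which has no nucleotide of its own, had FPKM of 0.908, 0.537 and 0.555 in siNC, against 0.337, 0.387 and 0.530 in siCNN3, lower without overlap but with a log2 fold change of −0.23 (SE 0.184, limma adjusted p = 0.718), or −0.55 with a pseudocount of 0.1 and −0.13 without siNC replicate 1.

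Cnn1, the smooth muscle calponin, was low, with a mean of 0.970 FPKM over the 6 libraries, compared with a filter of 0.5 FPKM. It lies on chromosome 9 (22099216 to 22109630, plus strand), and 1 of its 5 annotated transcripts, Cnn1-201, was listed. Its FPKM was 1.65, 0.332 and 1.39 in siNC (1.12 ± 0.697, SD, n = 3) and 0.559, 0.867 and 1.02 in siCNN3 (0.817 ± 0.236, SD, n = 3). The siNC libraries spanned 4.96 times from lowest to highest and enclosed all siCNN3 values. On the log2 scale the difference was −0.17 (SE 0.286, 95% interval −0.85 to 0.51, limma adjusted p = 0.809), and without siNC replicate 1 it was 0.017.

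Tagln varied more within the groups than between them. The gene lies on the minus strand of chromosome 9 (45929619 to 45936058), and 1 of its 3 annotated transcripts, Tagln-201, was listed. Its FPKM were 27.5, 11.9 and 28.0 in siNC (22.5 ± 9.15, SD, n = 3), against 11.2, 9.93 and 25.2 in siCNN3 (15.4 ± 8.45, SD, n = 3). In each group, 1 library stood apart from the other 2: siNC replicate 2 was low and siCNN3 replicate 3 was high. The SD within groups was 0.677 on the log2(FPKM + 1) scale, compared with a median of 0.231 over all tested genes, and the log2 fold change was −0.54 (SE 0.434, 95% interval −1.57 to 0.49, limma adjusted p = 0.587). It was −0.92 without siNC replicate 2, −0.93 without siCNN3 replicate 3 and −0.30 without siCNN3 replicate 2, with limma adjusted p from 0.206 to 0.891 over all alternatives.

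Tagln2 was higher in every siCNN3 library than in every siNC library, with a gap between the groups that was small beside the spread of the siNC libraries. It lies on chromosome 1 (172500047 to 172507380, plus strand), and 3 of its 4 annotated transcripts were listed. Its FPKM were 97.8, 123.1 and 131.1 in siNC (117.4 ± 17.4, SD, n = 3), against 143.2, 145.2 and 133.6 in siCNN3 (140.7 ± 6.19, SD, n = 3). Its log2 fold change was 0.27 (SE 0.132, 95% interval −0.04 to 0.58, limma p = 0.0817, adjusted p = 0.374, exact permutation p = 0.1). After median-of-ratios scaling it was 0.23, the groups stayed apart at 126.7 and 134.6 as their nearest values, and the limma p was 0.0467 before and 0.267 after adjustment. Without siNC replicate 1 it was 0.14 (limma adjusted p = 0.536), and after quantile normalization it was 0.14 (limma adjusted p = 0.476) and the groups overlapped, within a range of 0.261 to 0.715 over all alternatives.

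Tagln2-202, of 1586 nucleotides, held between 97.3% and 98.6% of the Tagln2 FPKM and set the gene's pattern. It had FPKM of 95.2, 120.4 and 128.6 in siNC, against 139.9, 143.0 and 131.8 in siCNN3, a log2 fold change of 0.28 (SE 0.134, limma adjusted p = 0.524). Tagln2-201, which encodes the same number of coding nucleotides (597) on a shorter transcript, had FPKM of 1.92, 1.76 and 2.15 in siNC, against 2.55, 1.99 and 1.83 in siCNN3, with overlap and a log2 fold change of 0.08 (limma adjusted p = 0.914). Tagln2-204, a fragment of 369 nucleotides that are all shared with other forms, was at 0.762, 1.01 and 0.335 FPKM in siNC and in siCNN3 it had 0.685 and 0.212 FPKM in replicates 1 and 2 and was listed at 0 in replicate 3. A value of 0 may be a failed estimate, and this transcript was under the filter of 0.5 FPKM and was not tested.

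**Figure D2:**
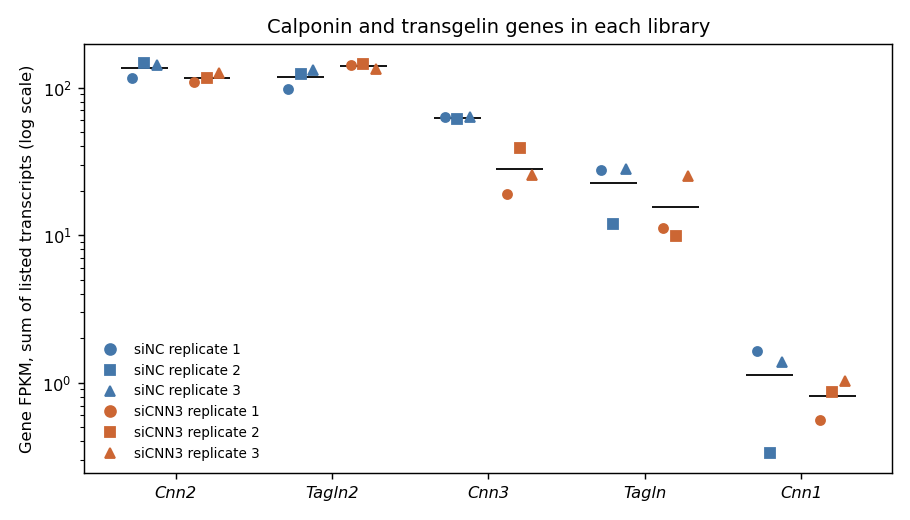
Gene FPKM of Cnn1, Cnn2, Cnn3, Tagln and Tagln2 on a log axis, 1 point per library in siNC and siCNN3, with lines for the group means. Cnn3 and Tagln2 are the genes whose groups separate, and Tagln and Cnn1 spread most within a group.

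Counted over the family, limma called 0 of the 5 genes at an adjusted p below 0.05, while it called 2.06% of the 11602 genes tested (200 higher and 39 lower), a share that ran from 0.172% to 5.21% with 1 library left out. Cnn3 was the 1 member with an unadjusted p below 0.05, against 16.1% of all genes tested. After median-of-ratios scaling there were 3 of 5, with Cnn2 and Tagln2, against 18.2% of all. After quantile normalization there were 2 of 5, Cnn3 and Cnn2, against 19% of all. The groups did not overlap for 2 of the 5, Cnn3 and Tagln2, against 23.1% of all genes. Of the 10 listed transcripts, 9 passed the filter of a mean of 0.5 FPKM and limma called 0 of them, while it called 0.539% of the 21723 transcripts tested, and 0 transcripts with the replicate number as a block. Cnn3-201 and Cnn3-203 had an unadjusted p below 0.05, 2 of 9 against 10.7% of all. Cnn3-204, Cnn2-202 and Tagln2-202 joined them among 5 of 9 without overlap, against 17.9% of all. The Cnn3 forms in these counts belong to the targeted gene and share most of their nucleotides, and Cnn2-202 has no nucleotide of its own. The counts are therefore not of independent members. An adjusted p above the threshold leaves the intervals given above and does not show that a gene stayed the same.

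**Figure D3:**
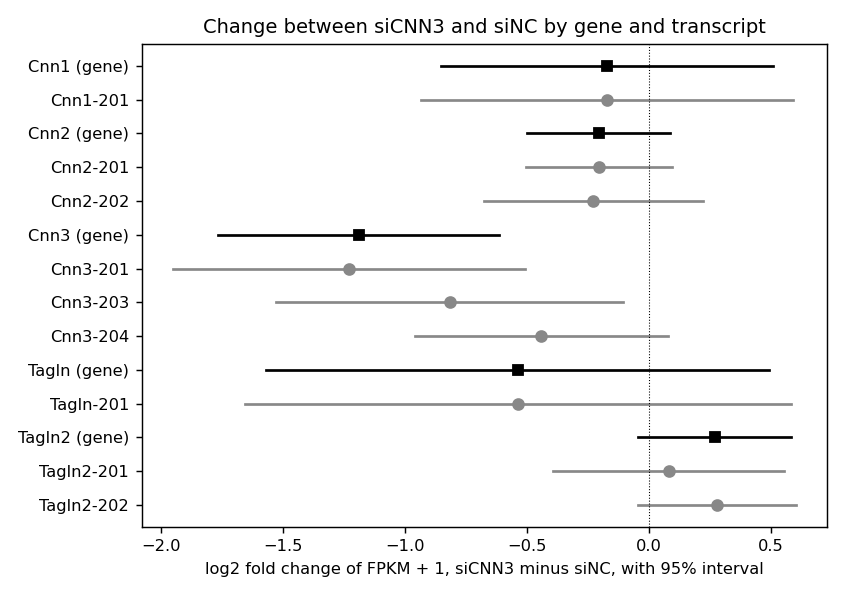
Log2 fold change of FPKM + 1, siCNN3 minus siNC, with its 95% interval, for the 5 gene sums (squares) and their tested transcripts (circles). The intervals of Cnn3, Cnn3-201 and Cnn3-203 lie below 0 and all others cross 0.

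FPKM are per transcript length, so the genes were ranked within a library. These ranks are of FPKM, and biases between genes other than length were not estimated. In siNC the order of the mean levels was Cnn2, Tagln2, Cnn3, Tagln and Cnn1. Cnn2 and Tagln2 overlapped between libraries, although Cnn2 was the higher of the pair within each siNC library. In siCNN3 the order was Tagln2, Cnn2, Cnn3, Tagln and Cnn1, with Tagln2 (133.6 to 145.2 FPKM) above Cnn2 (108.6 to 124.6 FPKM) without overlap. Cnn3 and Tagln overlapped there, and in siCNN3 replicate 3 they stood side by side at 25.6 and 25.2 FPKM.

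The exchange of the first place shows in the ratio of Cnn2 to Tagln2, which does not depend on how a library is scaled as a whole. The ratio was 1.19, 1.18 and 1.09 in siNC and 0.759, 0.796 and 0.932 in siCNN3, so Cnn2 exceeded Tagln2 in 3 of 3 siNC libraries and was below it in 3 of 3 siCNN3 libraries. The mean log2 ratio was 0.20 ± 0.074 (SD, n = 3) in siNC and −0.28 ± 0.16 (SD, n = 3) in siCNN3, a difference of −0.48 that stayed between −0.57 and −0.42 when any 1 library was left out. Its exact permutation p was 0.1, and 0.333 after Benjamini-Hochberg adjustment over the 10 pairs of members compared. Those 10 pairs were chosen after the values had been seen, and 3 of them did not overlap between the groups, near the 24.8% of all pairs of tested genes. The other two held Cnn3, the targeted gene: the ratio of Cnn2 to Cnn3 was 1.85, 2.37 and 2.27 in siNC and 5.70, 2.95 and 4.87 in siCNN3, and that of Cnn3 to Tagln2 was 0.642, 0.498 and 0.479 in siNC and 0.133, 0.270 and 0.191 in siCNN3.

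**Figure D4:**
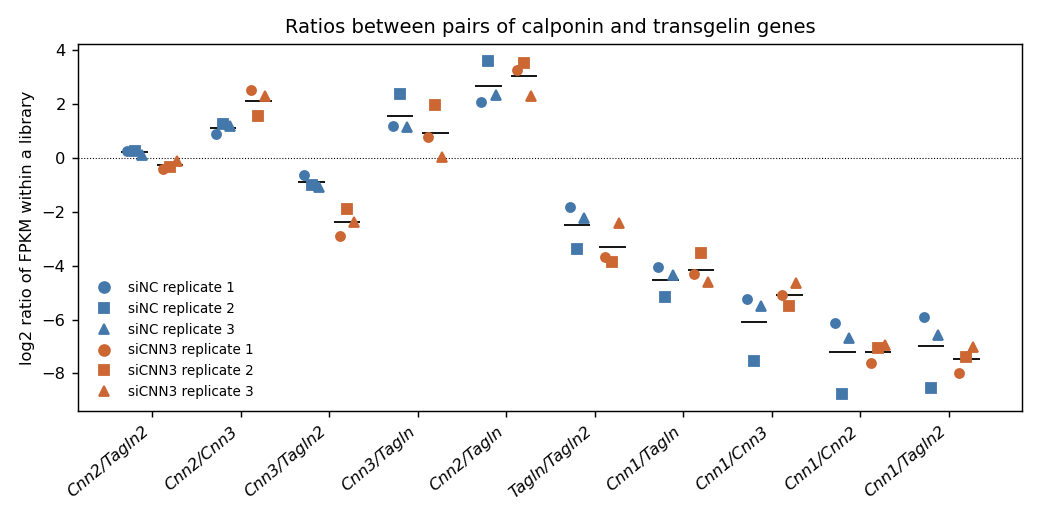
Log2 ratio of FPKM between pairs of member genes within each library, siNC and siCNN3, with lines for the group means and a dotted line at equal FPKM. Cnn2 over Tagln2 lies above 0 in the siNC libraries and below 0 in the siCNN3 libraries.

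Summed over the 5 genes, the family came to 306.2, 342.3 and 365.7 FPKM in the siNC libraries and to 282.6, 310.9 and 310.0 FPKM in the siCNN3 libraries. The 3 calponins made up 198.3 ± 15.1 FPKM in siNC and 145.0 ± 14.7 FPKM in siCNN3, and the 2 transgelins 139.8 ± 17.4 and 156.1 ± 2.37 FPKM (SD, n = 3). Cnn3 held 18.5% ± 1.75 of the family's FPKM in siNC and 9.20% ± 3.05 in siCNN3, while Tagln2 held 34.6% ± 2.29 and 46.8% ± 3.78 (SD, n = 3). The share of Cnn2 was 39.8% ± 2.38 in siNC and 38.6% ± 1.504 in siCNN3. These sums and shares are descriptions and were not tested.

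Smooth muscle genes, the company that Cnn1 and Tagln keep in vascular and visceral muscle, leaned lower in siCNN3 without passing the adjusted test. Of 30 such contractile genes, 25 were tested and limma called 0, with 0 higher and 11 lower at an unadjusted p below 0.05, against 9.94% and 6.14% of all tested genes. Their log2 fold change was below 0 in 22 of 25, with a median of −0.36, compared with 0.03 over all genes, of which 46.0% were below 0. Acta2, smooth muscle actin, was at 340.6 ± 92.8 FPKM in siNC and 194.1 ± 10.8 in siCNN3 (log2 fold change −0.77, SE 0.210, limma adjusted p = 0.132). Mylk, the kinase that switches on smooth muscle myosin, was at 12.5 ± 3.44 and 6.66 ± 0.792 FPKM (−0.79, limma adjusted p = 0.134), and Sorbs2, an adaptor at actin attachment sites, was at 7.44 ± 3.94 and 3.21 ± 1.21 FPKM (−0.91, limma adjusted p = 0.334). With siCNN3 replicate 3 left out limma called 3 of the 25 and 5.21% of all genes, and with siNC replicate 1 left out it called 1 of the 25 and 0.836% of all.

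Genes whose proteins share the calponin homology domain, such as alpha-actinins, filamins and spectrins, were looked at next. Of 70 listed by name, 56 were tested and limma called 0, with 1 higher and 10 lower at an unadjusted p below 0.05. Those are 1 and 10 of 56, against 9.94% higher and 6.14% lower over all genes. Their log2 fold change was below 0 in 44 of 56, against 46.0% of all genes, with a median of −0.17 that was −0.10 without siNC replicate 2. Actn3, the alpha-actinin of fast muscle Z-discs, had a log2 fold change of −0.79 (limma adjusted p = 0.104), Mapre2, a microtubule end-binding protein, −0.84 (limma adjusted p = 0.214) and Smtn, smoothelin, −0.72 (limma adjusted p = 0.307). Among 37 tested regulators and partners of calponin in actomyosin, limma called 0, with 3 higher and 5 lower at an unadjusted p below 0.05, against the same 9.94% and 6.14%. Of the 37, 25 were below 0. Their median was −0.13, and it was −0.06 without siCNN3 replicate 1, −0.08 without siNC replicate 2 and −0.24 without siCNN3 replicate 3. Mylk was also on that list, as was Myl9, a regulatory light chain of myosin, with a log2 fold change of −0.69 (limma adjusted p = 0.195). Without siCNN3 replicate 3, limma called 3 of the 56 calponin homology domain genes and 4 of the 37 regulators, while it called 5.21% of all genes.

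A list of coactivators of serum response factor and of TGF-beta genes had a median log2 fold change of 0.02 over 27 tested genes (−0.02 after median-of-ratios scaling), with 13 below 0. limma called 1 of the 27 higher and 0 lower, near the 2.06% of all genes, and 5 higher and 3 lower had an unadjusted p below 0.05, against 9.94% and 6.14%. The called gene was Fhl2, a LIM-domain partner of serum response factor, which rose from 28.2 ± 2.897 FPKM in siNC (SD, n = 3) to a mean of 48.1 FPKM in siCNN3 (log2 fold change 0.75, SE 0.126, limma adjusted p = 0.0405). The list held 0 called genes with the replicate number as a block and when any 1 of siNC replicates 1, 2 and 3 or siCNN3 replicates 1 and 2 was left out, and 2 without siCNN3 replicate 3. Ccn2, a secreted matrix protein induced by TGF-beta, was at 44.8 ± 22.3 FPKM in siNC and 103.5 ± 37.1 in siCNN3 (1.29, limma adjusted p = 0.23), and Tgfbr2, a TGF-beta receptor, had a log2 fold change of −0.59 (limma adjusted p = 0.11).

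The genes nearest to each member in pattern were found by the root mean square difference of log2(FPKM + 1), after centring each gene on its mean over the 6 libraries. Near to Tagln were Ctdsp1 (0.169) and Stmn2 (0.185), compared with a median of 0.683 over 8182 genes. Within the groups they shared its low siNC replicate 2 and its high siCNN3 replicate 3: Ctdsp1 had FPKM of 20.6, 6.88 and 16.9 in siNC, against 7.86, 4.83 and 16.5 in siCNN3. For Cnn1 they were Osmr (0.096), Nectin2 (0.112) and Spp1 (0.122), whose lowest library was also siNC replicate 2. For Cnn3, Tspan8 was nearest (0.143, median 0.713), with FPKM of 15.7, 12.0 and 15.1 in siNC, against 3.83, 7.57 and 6.25 in siCNN3, followed by Gstm7 (0.234) and Arhgap5 (0.269). Wdr1 (0.027), Tbx18 (0.030) and Ldb1 (0.032) lay nearest to Cnn2, and S1pr1 (0.039), Polr2m (0.040) and Caprin1 (0.040) to Tagln2. The measure is a description over 6 libraries, and members with a small spread have near neighbours by construction.

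Since the CArG box is the classic element of smooth muscle promoters, the 250 bases before the RefSeq start of 4 members (Cnn1, Cnn2, Cnn3 and Tagln2; RefSeq sequences of GRCm38.p6) were searched for it on both strands, by its letters CC, then 6 bases that are each A or T, then GG. Cnn2 held 1, from 56 to 47 bases before its RefSeq start, and it is printed in capitals in its surroundings on chromosome 10 because it was the only match in the 4 windows.
Cnn2 promoter, chr10:79988519-79988578, plus strand: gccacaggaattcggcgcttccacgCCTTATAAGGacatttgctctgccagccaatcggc
Of 32851 promoters searched in the same way, 1.47% held the element. The windows of Cnn1, Cnn3 and Tagln2 did not hold these letters, which says nothing of the factor elsewhere. For Tagln2, 199 of the 250 bases lie in the first exon of Tagln2-202, its form with the highest FPKM, so bases before the start of that form were mostly not searched. For Cnn2 and Cnn3, 16 and 44 of the 250 bases lie in exons of Cnn2-201 and Cnn3-201. The match in Cnn2 thus lies nearer to the start of Cnn2-201 than to the RefSeq start. Tagln was not searched here. The GC content of the 4 windows was 59.2% for Cnn1, 68.4% for Cnn2, 78.8% for Cnn3 and 60.0% for Tagln2, compared with a median of 52.4%.

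Marker genes of the cell types that a C2C12 culture could hold were summed beside the members, and most sums were carried by 1 or 2 genes, which were picked out after the values had been seen. Myotube markers (10 of 12 listed, Myh8 and Actc1 not analysed here) came to between 177.1 and 209.1 FPKM in siNC and between 101.7 and 122.3 in siCNN3, most of it Des, which is also a smooth muscle marker. Without Des the other 9 came to between 64.1 and 95.8 FPKM in siNC and between 15.2 and 19.1 in siCNN3. Acta1, skeletal muscle actin, had FPKM of 24.6, 33.8 and 26.9 in siNC, against 5.37, 5.35 and 6.43 in siCNN3, and Mylpf, a light chain of fast muscle myosin, had 22.8, 36.5 and 25.4 in siNC, against 5.88, 7.36 and 7.16 in siCNN3. Ckm, a kinase of mature muscle, was at most 0.911 FPKM and listed at 0 in siCNN3 replicates 1 and 3.

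Smooth muscle markers (4 of 7 listed, while Myh11, Myocd and Kcnmb1 were not analysed here) ranged from 357.3 to 540.5 FPKM in siNC and from 287.6 to 303.1 in siCNN3, and without Des and Acta2 from 10.8 to 18.1 and from 9.11 to 12.6, which overlapped. Myoblast markers (4 of 6 listed) ranged from 131.6 to 159.5 and from 91.1 to 135.5 FPKM, almost all of it Itga7, and without Itga7 from 9.67 to 15.1 and from 10.3 to 20.5. The 4 myoblast markers did not share a direction. Myf5, a myogenic factor of undifferentiated myoblasts, stood at 3.55, 5.64 and 4.84 FPKM in the siNC libraries and at 12.9, 11.4 and 5.40 FPKM in the siCNN3 libraries, with overlap. Myod1, another myogenic factor, had FPKM of 2.07, 1.93 and 3.10 in siNC, against 1.505, 1.57 and 1.37 in siCNN3, lower without overlap. Cdh15 and Itga7 overlapped. Fibroblast markers (5 of 6 listed) ranged from 501.8 to 579.1 FPKM in siNC and from 387.2 to 409.4 in siCNN3, and without Dcn, which was lower in every siCNN3 library, from 318.5 to 423.7 and from 317.0 to 335.6, which overlapped. Most of that rest was Col1a2, with FPKM of 293.9, 383.4 and 371.9 in siNC, against 309.7, 305.4 and 290.7 in siCNN3. Leaving out Dcn takes away a gene that was lower, so this overlap is no separate result. Of the blood and immune markers (3 of 5 listed), the globins Hba-a1 and Hbb-bs made up most of a sum of 151.5 to 425.4 FPKM in siNC and 34.4 to 46.1 in siCNN3, while Cd68, the 1 other, ranged from 3.60 to 5.39 and from 1.96 to 3.55. Of the 3 endothelial markers, 0 were listed. The part of these differences in the values of Cnn3, Tagln2 and the other members was not tested.

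The FPKM of a library summed to between 322621 in siNC replicate 1 and 355591. That library also listed 2131 transcripts at 0, compared with 978 to 1333 in the other 5, and it held the lowest siNC values of Cnn2 and Tagln2, the latter given without it above. Without siNC replicate 1 the log2 fold change of Cnn2 was −0.31 (limma adjusted p = 0.243). Because the files hold no read counts, the depth is unknown, and counting error was not estimated.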

How the data were processed

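RNA from 3 siNC and 3 siCNN3 samples of C2C12 cells was sequenced by the authors, who deposited FPKM for 24023 Ensembl transcripts in each library. The submitters' processing notes name Bowtie 0.12.2 and the builds mm8 and mm10 with no role, and the program that estimated FPKM, its annotation and the read numbers are not given in the sources used here. Identifiers were matched to GENCODE release M21 of GRCm38 without their version (23949 matched, 22790 with the version). The 74 without a match, 0.159% to 0.220% of library FPKM, entered no gene sum.

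FPKM were summed per gene. Genes, and separately transcripts, whose mean FPKM reached 0.5 were taken to the log2(FPKM + 1) scale, which understates changes of low genes, and tested with limma 3.58.1 in R 4.3.3 (mean-variance trend, Benjamini-Hochberg adjustment over all features tested, threshold 0.05), checked on simulated data. Two-sided exact permutation tests of 3 against 3 cannot go below p = 0.1. The members and lists were chosen with earlier results of these data known. All members and their listed transcripts are named, with, from each list, called genes and the 3 with the largest change, and the 3 nearest genes in pattern with a mean of at least 5 FPKM. Some genes that meet these rules are not reported here. The 4 lists were written from general knowledge.

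siRNA sequences came from the study's supplement and were slid without gaps along GENCODE transcripts. Coding sequences were aligned globally with Biopython 1.88 (match 2, mismatch −1, gap opening −5, extension −0.5). Same-numbered replicates were not taken as pairs, since their deviations from the group means correlated at −0.276, 0.313 and −0.023. Alternatives were a pseudocount of 0.1, no filter or 5 FPKM, quantile normalization, scaling by median of ratios, a block for the replicate number, limma without a trend, each library left out, versioned identifiers, and no transcripts at 0. Ratios between members were added after the data were seen. Tables and figures were made with Python 3.11.15 (matplotlib 3.10.9, scipy 1.17.1, numpy 2.4.6, pandas 2.3.3) and the R package data.table (version 1.17.8).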

Additional observations from a re-analysis of the deposited data

How the results depend on the processing

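Of 74 alternative values for the log2 fold changes of the 5 genes, 72 kept their direction and their side of the threshold. Cnn1 turned to 0.017 without siNC replicate 1 (−0.48 to 0.02 with each library left out), as did Cnn1-201, and Cnn3 passed at −1.46 without siCNN3 replicate 2 (−1.46 to −0.95). Of 112 values for transcripts 110 kept both, and Tagln2-201 turned to −0.017 without siCNN3 replicate 1 (−0.017 to 0.148). A pseudocount of 0.1 moved some low transcripts: Cnn3-203 to −1.25, Cnn3-204 to −0.65 and Cnn2-202 to −0.55. Cnn1-201 went only to −0.22 and Tagln2-201 to 0.11 with it. With the filter at 5 FPKM, Cnn1 and the low transcripts gave no value.

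Counts over all genes moved more. limma called 200 genes higher and 39 lower as reported, 218 and 61 with median-of-ratios scaling, and 198 and 92 with quantile normalization. The share of called genes that were higher thus went from 83.7% to 78.1% and 68.3%, mostly through more lower calls. Without transcripts at 0, limma called 125 higher. With each library left out it called 16 to 444 genes higher and 4 to 161 lower, both highest without siCNN3 replicate 3. For transcripts (100 higher and 17 lower as reported), quantile normalization gave 29 lower, and leaving out a library gave 1 to 276 higher and 0 to 56 lower. The replicate number as a block left 62 genes higher and 6 lower, 0 transcripts higher and 0 lower, and 0 called genes in the list of serum response factor coactivators and TGF-beta genes, and Cnn3 had a limma adjusted p of 0.124. No siNC library correlated best with its own number: siNC replicates 1, 2 and 3 did so with siCNN3 replicates 3, 1 and 2 (0.441, 0.316 and 0.077). Of the siCNN3 libraries, only replicate 2 correlated best with its own number (0.313).

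With each library left out, the number of called genes was 0 to 3 for smooth muscle genes, 0 to 3 for calponin homology domain genes, 0 to 4 for regulators and 0 to 2 for serum response factor coactivators and TGF-beta genes. The median log2 fold change of the last list turned to −0.02 at 5 FPKM, −0.019 with median-of-ratios scaling, −0.016 and −0.121 without siNC replicates 1 and 2, and −0.159 without siCNN3 replicate 3 (highest 0.068 with a library left out). The share of Cnn3-201 turned to 0.990 points without siCNN3 replicate 1 (lowest −5.59), that of Cnn3-204 ranged from 0.569 to 4.17, and that of Cnn3-203 to −0.711 without siNC replicate 2 and −1.56 without siCNN3 replicate 1 (highest 1.42). The log2 ratio of Cnn1 to Cnn2 turned to −0.786 without siNC replicate 2 and to −0.066 and −0.131 without siCNN3 replicates 2 and 3 (highest 0.531), and that of Cnn1 to Tagln2 to 0.074 without siNC replicate 1 (lowest −1.25). The cause was not tested.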
